A study of Danio rerio with 8 samples.

Results

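The genes described here lie around runx2b on zebrafish chromosome 20. They are the 377 genes of the deposited table whose entries are all on chromosome 20 and whose start lies between 34.1 and 55.34 Mb, out of 25279 genes in all. The table puts the start of runx2b at 44097770, so the window reaches 9.998 Mb below it and 11.242 Mb above it, up to the last gene of the chromosome in this table. runx2b itself, hsp90aa1.1 and hsp90aa1.2 were left out by the same rule. The rule uses position alone apart from these 3 genes, and it was set with earlier results of these data known. At the lower edge, scyl3 (start 34109692) was the first gene inside and si:dkey-97o5.1 (start 34091701) the first outside. At the upper edge, CT027638.1 (start 55338636) was the last gene inside and none followed it.

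RNA of tail muscle together with its intermuscular bones was sequenced in bulk. These are thin bones that lie between the muscle segments of many teleost fish. The fish were at 60 days post fertilization. The runx2b-/- group had 3 libraries and the wild type group had 3, and all came from the line labelled Tg (sp7/eGFP), whose sp7 promoter drives a green fluorescent protein in bone-forming cells. The labels do not give the runx2b lesion, the sex of the fish, whether wild type fish were siblings of the mutants, or whether libraries were made from different fish. The p-values below therefore measure the spread between these libraries, which may be technical. A further 2 single-cell samples were not analysed here.

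Runx2 is a transcription factor needed for bone formation in vertebrates, and zebrafish carry a pair of copies, runx2a and runx2b. A mutant allele is inherited together with the stretch of chromosome on which it arose. In homozygous mutants, the genes on that stretch therefore often carry the alleles of the founder chromosome, while wild type fish can carry others. Such linked alleles can differ in expression whether or not the mutated gene acts on them, and they are most often kept close to the mutation. For genes near runx2b, an effect of linked alleles and an effect of the lost gene cannot be told apart in this design.

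Library totals were 17280098 to 20429162 counts in runx2b-/- and 19890668 to 20482003 in wild type, so that 3 counts stood for 0.134 to 0.181 CPM, the count scaled to the size of the library. runx2b was close to the limit of detection in both groups, at 4, 2 and 6 counts in runx2b-/- libraries 1 to 3 and 2, 2 and 6 counts in wild type libraries 1 to 3, which checks neither label. Skeletal muscle, the labelled tissue, was seen in 8 defining genes, whose summed level was 216802 to 264085 CPM in runx2b-/- and 175675 to 236800 CPM in wild type. Summed levels of the markers of several other cell types differed between the groups without overlap, and their part in the values below was not tested. Of the tested markers, 4 of 4 yolk genes, 2 of 3 neutrophil genes and 1 of 6 bone genes were called lower in runx2b-/-, and 5 of 8 red blood cell genes higher. Over all tested genes, 1.62% were called lower and 1.76% higher. The 4 yolk genes were vtg1, vtg4, vtg5 and vtg7, and the egg coat genes of the same list, zp2.1 and zp3b, were not tested. Macrophage genes (1 of 6 called lower) and endothelial genes (1 of 5 called higher) also had summed levels without overlap, and 1 of 3 epidermal genes was called lower. The summed level of 8 egg and yolk genes was 0.164 to 0.967 CPM in runx2b-/- and 32.8 to 34.8 CPM in wild type, and that of neutrophil genes was 1.04 to 1.73 CPM in runx2b-/- and 3.17 to 9.53 CPM in wild type. Bone genes summed to 9.88 to 16.6 CPM in runx2b-/- and 41.6 to 59.7 CPM in wild type. Most of that gap came from bglapl, which was called, and col10a1a, which was not (log2 fold changes -3.10 and -3.63). The other tested bone genes, phex, spp1, bglap and entpd5a, had log2 fold changes of -0.04 to -0.52 and were not called. Red blood cell genes summed to 1672 to 1908 CPM in runx2b-/- and 1226 to 1416 CPM in wild type. In such bulk tissue, fewer cells of a type and less RNA per cell cannot be told apart.

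Of the 377 genes around runx2b, 204 had enough counts to be tested, and 7 of those changed. The single gene that fell was nus1. The 6 that rose were mllt4a, mark3b, igf2r, trdn, dnmt3aa and mettl24, by 1.61-fold to 1.97-fold. Calls were made at adjusted p values below 0.05 in edgeR's quasi-likelihood test, with Benjamini-Hochberg adjustment over all 14107 tested genes of the table. The 7 called genes were 3.43% of the tested genes of the window, against 3.37% of all tested genes, where 1.76% were called higher and 1.62% lower. The share around runx2b was thus near the background. The median log2 fold change was -0.01 in the window and -0.01 over all tested genes, and the median absolute log2 fold change was 0.238 in the window against 0.278. An absolute log2 fold change of 1 or more was seen in 4.41% of the window against 6.27% of all tested genes, and an unadjusted p under 0.05 in 16.2% against 19.4%.

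Before any model, the raw separation of the groups was counted. The 3 runx2b-/- CPM values lay all above or all below the 3 wild type values for 44 of the 204 tested genes, 20 higher and 24 lower in runx2b-/-. That is 21.6% of the window, against 24.6% of all tested genes. Exons of 39 of the 204 tested genes overlap those of another gene, mostly on the opposite strand, so some reads may have entered more than 1 gene. Of the 120 tested genes whose span overlaps no other gene, 27 had separate groups (22.5%). On the rest of chromosome 20, 2.02% of 347 tested genes were called and 24.2% had separate groups. Across the other 24 chromosomes, the share called ran between 1.47% on chromosome 6 and 7.18% on chromosome 4, with a median of 3.15%, so the window lay inside the range of whole chromosomes.

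**Figure D1:**
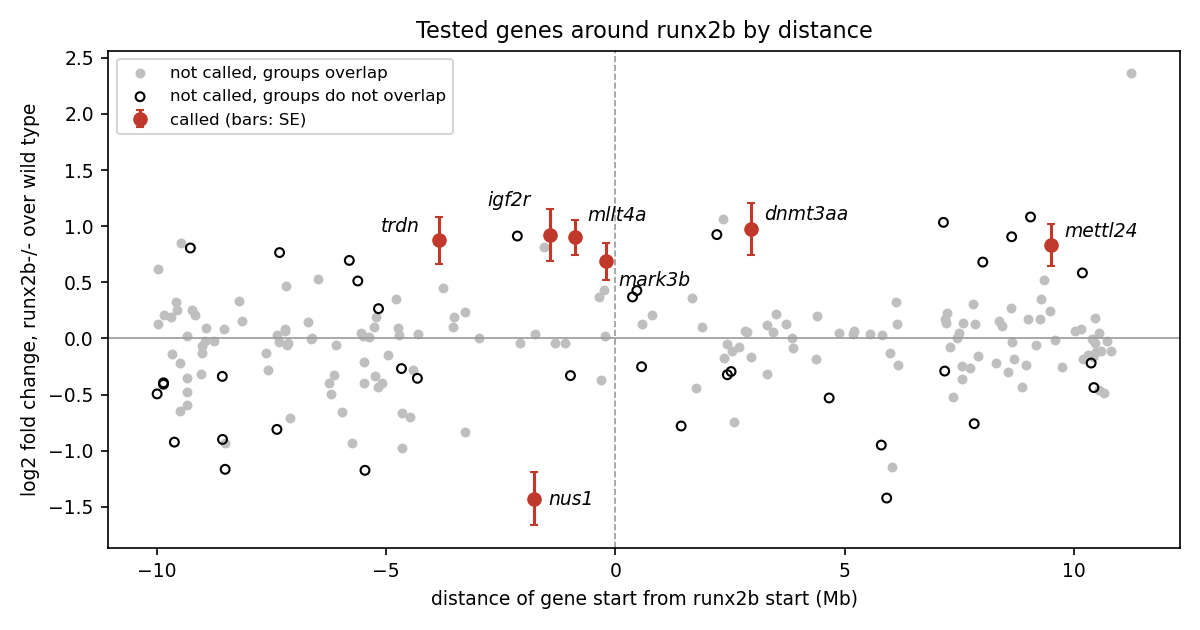
Log2 fold change of each of the 204 tested genes (runx2b-/- over wild type, vertical axis) against the distance of its start from the start of runx2b in Mb (horizontal axis, negative at lower coordinates). Filled grey points are genes whose groups overlap, open circles genes whose groups do not overlap and were not called, and red points with SE bars the 7 called genes, of which nus1 is the only 1 below 0 and 5 lie at lower coordinates than runx2b.

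The shares differed with distance. Within 2.5 Mb of runx2b, 4 of 29 tested genes were called (13.8%): nus1, igf2r, mllt4a and mark3b, all at lower coordinates than runx2b. Beyond 2.5 Mb, 3 of 175 were called (1.71%): trdn, dnmt3aa and mettl24. The shares beyond 2.5 Mb, here and under other settings, leave out hsp90aa1.1 and hsp90aa1.2. Both were called lower and lie beyond 2.5 Mb, so including them would narrow the contrast in calls. Groups did not overlap for 12 of the 29 nearer genes (41.4%) and for 32 of the 175 farther ones (18.3%), and the median absolute log2 fold change was 0.367 nearer and 0.219 farther. Over all tested genes, 3.37% were called, 24.6% had separate groups, and the median absolute log2 fold change was 0.278. The cut at 2.5 Mb joins 2 of the distance classes below and was not itself among the planned classes. With a cut at 5 Mb, 6 of 66 nearer genes were called (9.09%) and 27.3% had separate groups. Their median absolute log2 fold change was 0.260. Separation and size of change then lay near those of all tested genes. These shares are descriptions without a test, and the 4 calls within 2.5 Mb rest on few genes.

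In finer classes, the share called was 16.7% from 0 to 1 Mb, 11.8% from 1 to 2.5 Mb, 5.41% from 2.5 to 5 Mb, 0.840% from 5 to 10 Mb and 0 of 19 genes over 10 Mb. The first class held 12 tested genes, the second 17 and the last 19, so these 3 are thinly filled. Separate groups made up 50% of the genes from 0 to 1 Mb and 35.3% from 1 to 2.5 Mb, then 16.2%, 19.3% and 15.8% in the classes farther out. Gene by gene the trend was weak: Spearman's rho between distance and absolute log2 fold change was -0.04 over the 204 genes, which share libraries. The genes left out by the rule bear on the far end. hsp90aa1.1 and hsp90aa1.2, neighbouring genes for a cytosolic chaperone, both lie over 10 Mb from runx2b. They had log2 fold changes of -1.37 and -1.38 (adjusted p = 0.00672 and 0.00882, edgeR). With them, 2 of 21 tested genes over 10 Mb would be called (9.52%) and 9 of 206 in the whole window (4.37%). The spans of hsp90aa1.1 (54192871 to 54222597) and hsp90aa1.2 (54177625 to 54206912) overlap. How reads were divided between them is uncertain, so these 2 calls may not be separate.

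**Figure D2:**
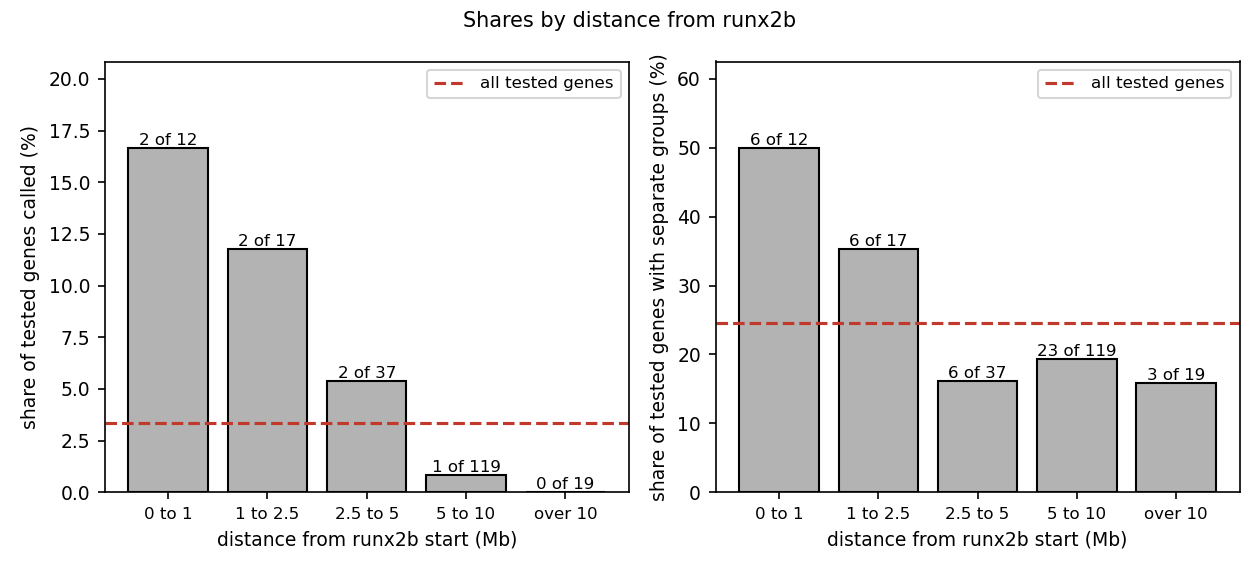
Share of tested genes called (left, percent) and share whose 3 runx2b-/- values do not overlap the 3 wild type values (right, percent), by distance from the start of runx2b in Mb, with the number of genes above each bar. The dashed line is the share over all 14107 tested genes, and the bars within 2.5 Mb stand above it on both sides of the plot.

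Separation was counted in 5 other normalizations and filters. There, 25.8% to 62.5% of the genes within 2.5 Mb had separate groups, against 13.1% to 18.9% farther out. Of all tested genes, 18.3% to 26.8% had them in these settings. With 1 library left out, 40.6% to 56.7% of the nearer genes had separate groups, against 24.9% to 34.9% farther out. The share over all tested genes was then 31.1% to 41.2%. Calls held less well. Under 8 other normalizations, filters and tests, 2 to 6 of the nearer genes were called (6.90% to 18.8%) and 1 to 7 of the farther ones (0.571% to 2.29%). Of all tested genes, 2.6% to 4.8% were called there. A correction for gene length left 2 calls and 31.0% with separate groups, against 22.9% of all tested genes. Scaling by library size alone left 2 calls and 27.6%, against 18.85% of all tested genes. With 1 library left out, 0 to 7 of the nearer genes were called (0 to 21.9%) and 0 to 10 of the farther ones (0 to 5.29%). The share called over all tested genes was then 0.776% to 8.26%. Without runx2b-/- library 1 or without runx2b-/- library 3, 0 were called at either distance, and 0.903% or 0.776% of all tested genes. Gene length differed with distance too: the median length of the tested genes was 3083 bases within 2.5 Mb and 3692 bases within 1 Mb, against 2652 bases over all tested genes, and log2 fold change correlated with length (Spearman's rho 0.167 in the window and 0.187 over all tested genes, across genes that share libraries). Of the 7 called genes, 6 were longer than 2652 bases, against 244 of the 476 called genes of the whole table.

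The 7 called genes did not lie side by side. Among 203 pairs of neighbouring tested genes, none had both members called. Between each called gene and the next lay 2 to 57 tested genes. With 3.43% of the tested genes called, few such pairs can be seen, and the same count was not made over the whole table. The absence of such pairs therefore does not set the window apart. igf2r and nus1, which moved in opposite directions, were the closest pair, with starts 0.343 Mb apart and 2 tested genes between them. The lower side held 5 of the 7 calls (4.85% of 103 tested genes) and the upper side 2 (1.98% of 101). The share called over all tested genes, 3.37%, lay between them. Separate groups made up 22.3% of the lower side and 20.8% of the upper side, against 24.6% of all tested genes. With so few calls, these shares do not set the sides apart.

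nus1 (chromosome 20, 42324048 to 42344346, minus strand, 1.77 Mb below runx2b) encodes a subunit of the enzyme that makes dolichol, the lipid on which sugar chains for protein glycosylation are built, a role known from human and yeast cells. Its level was 2.38, 3.87 and 2.73 CPM in runx2b-/- libraries 1 to 3, against 9.56, 8.08 and 6.34 CPM in wild type libraries 1 to 3. The highest mutant library stayed below the lowest wild type library. Means were 2.99 ± 0.779 CPM in runx2b-/- and 7.99 ± 1.61 CPM in wild type (SD, n = 3 each), a 2.69-fold lower level in runx2b-/- (log2 fold change -1.43, SE 0.235, edgeR adjusted p = 0.00725). This was the largest change among the 7 called genes. It was lost only without runx2b-/- library 1 (adjusted p = 0.0603) or without runx2b-/- library 3 (adjusted p = 0.0612), among 14 alternatives.

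mllt4a (43223054 to 43456066, 0.875 Mb below runx2b) encodes afadin, a protein that links nectin adhesion molecules at cell junctions to actin. Its level was 28.2, 25.3 and 29.7 CPM in runx2b-/-, against 13.9, 14.4 and 16.3 CPM in wild type. The groups stood wide apart and each varied little. Means were 27.7 ± 2.25 CPM in runx2b-/- and 14.8 ± 1.26 CPM in wild type (SD, n = 3 each), 1.87-fold higher (log2 fold change 0.90, SE 0.154, edgeR adjusted p = 0.00882). The call was lost without runx2b-/- library 1, runx2b-/- library 3 or wild type library 2, at adjusted p up to 0.0655. An exon of mllt4a overlaps one of AL928920.2 on the same strand, so reads there could have been split between them.

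mark3b (43895788 to 44020611, 0.202 Mb below) was the tested gene nearest to runx2b and encodes a kinase of the family that phosphorylates microtubule-associated proteins. It stood at 12.3, 10.4 and 12.6 CPM in runx2b-/-, against 6.79, 7.14 and 7.99 CPM in wild type. Every mutant library lay above every wild type library. The level was 1.61-fold higher in runx2b-/- (log2 fold change 0.69, SE 0.166, edgeR adjusted p = 0.0440). Among 14 alternatives the call held in 6. It was lost, for instance, with scaling by library size (adjusted p = 0.143), with the length correction (0.0695) and without any library except wild type library 3 (up to 0.188).

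igf2r (42666508 to 42763546, 1.43 Mb below) encodes the receptor that carries enzymes tagged with mannose 6-phosphate to lysosomes and, in mammals, also binds insulin-like growth factor 2. It had 4.94, 3.69 and 5.02 CPM in runx2b-/-, against 1.92, 2.58 and 2.74 CPM in wild type. The groups did not overlap, and wild type library 1 was the lowest. The level was 1.89-fold higher in runx2b-/- (log2 fold change 0.92, SE 0.230, edgeR adjusted p = 0.0498), at the edge of the threshold. It passed in 3 of 14 alternatives, with adjusted p up to 0.203.

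trdn (40247976 to 40328743, 3.85 Mb below) encodes triadin, which anchors the calcium-binding protein calsequestrin to the calcium release channel of muscle. It was the most abundant of the called genes per base of length. Its level was 388, 488 and 662 CPM in runx2b-/-, against 289, 226 and 324 CPM in wild type, so the lowest mutant library lay above the highest wild type library by less than the spread within the mutants. Means were 512 ± 139 CPM in runx2b-/- and 279 ± 50.1 CPM in wild type (SD, n = 3 each), 1.83-fold higher (log2 fold change 0.87, SE 0.211, edgeR adjusted p = 0.0441). Of 14 alternatives 7 kept the call, and leaving out any library except wild type library 3 ended it (adjusted p up to 0.207). None of the 8 skeletal muscle markers was called, and the part of muscle content in the trdn value was not tested.

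At higher coordinates, dnmt3aa (47063549 to 47148276, 2.97 Mb above) encodes a DNA methyltransferase of the kind that sets new methylation marks. It had 7.09, 6.47 and 8.35 CPM in runx2b-/-, against 3.84, 2.58 and 4.74 CPM in wild type. The groups did not overlap, and the level was 1.97-fold higher in runx2b-/- (log2 fold change 0.98, SE 0.231, edgeR adjusted p = 0.0403). mettl24 (53602867 to 53630066, 9.51 Mb above), named as a methyltransferase-like gene, had 6.15, 7.37 and 6.77 CPM in runx2b-/-, against 4.11, 3.71 and 3.54 CPM in wild type. Its groups were again separate, 1.78-fold higher in runx2b-/- (log2 fold change 0.83, SE 0.184, edgeR adjusted p = 0.0292). Both calls were lost without any 1 of the 3 runx2b-/- libraries or without wild type library 2, with adjusted p up to 0.188 for dnmt3aa and 0.127 for mettl24. Scaling by library size alone also ended both (adjusted p = 0.0557 for dnmt3aa and 0.112 for mettl24).

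**Figure D3:**
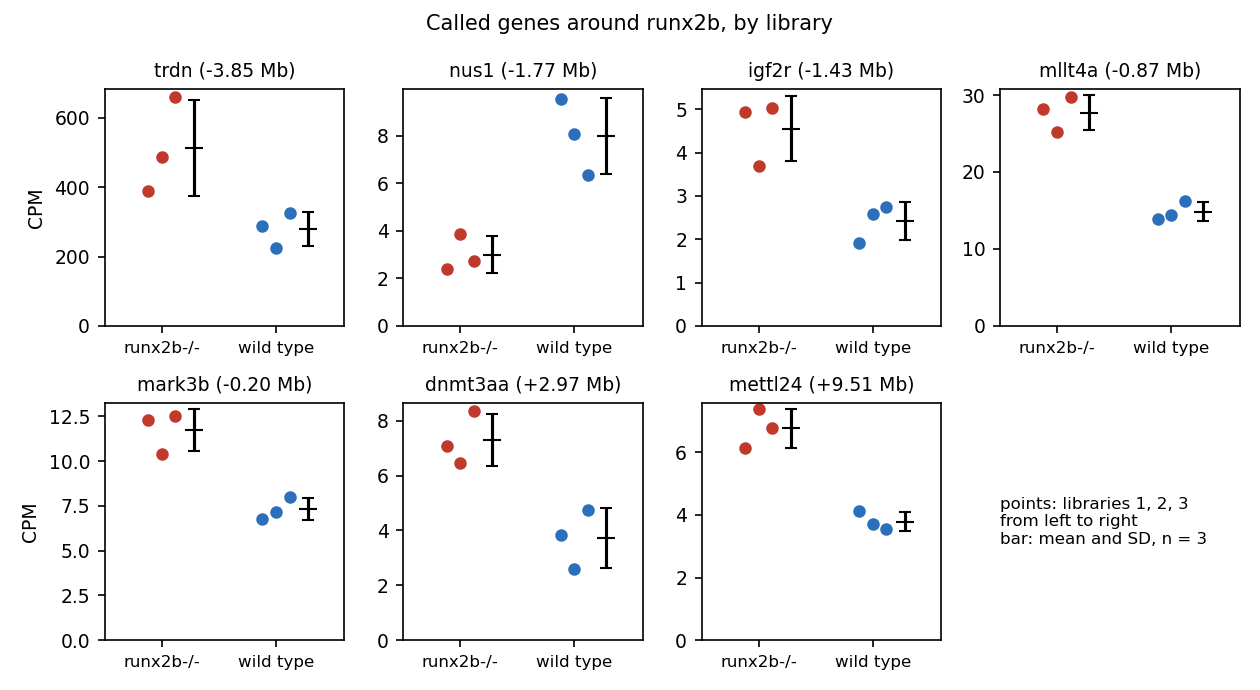
CPM of the 7 called genes in each library, 1 panel per gene with its own axis starting at 0 and its distance from runx2b in the title. Points are libraries 1 to 3 from left to right, bars the mean and SD (n = 3), and in all 7 panels the runx2b-/- points lie wholly above the wild type points or, for nus1, wholly below them.

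Right next to runx2b, little could be measured. The nearest gene, clic5b (0.0697 Mb below), related to chloride intracellular channel genes, had 17, 4 and 7 counts in runx2b-/- libraries, against 3, 5 and 0 counts in wild type, and did not reach the test. Below mark3b came laptm4a, a lysosomal membrane protein gene, with 11.4, 10.9 and 10.7 CPM in runx2b-/- and 11.4, 10.0 and 11.1 CPM in wild type. Its log2 fold change was 0.02 (SE 0.154, edgeR adjusted p = 0.958). The next genes on that side had log2 fold changes of 0.43 for ttc32 (SE 0.280), -0.37 for lin9, a subunit of a cell cycle repressor complex (SE 0.453), and 0.37 for parp1, which marks DNA breaks (SE 0.327). None of the 3 passed the test, and their groups overlapped.

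On the upper side, the nearest tested gene was mut, which encodes the mitochondrial enzyme methylmalonyl-CoA mutase. It had 89.3, 73.0 and 84.0 CPM in runx2b-/-, against 69.0, 61.2 and 60.3 CPM in wild type, a log2 fold change of 0.37 (SE 0.154, edgeR adjusted p = 0.213). fkbp1b, whose product binds the calcium release channel, had 43.9, 40.7 and 40.1 CPM in runx2b-/-, against 31.5, 24.2 and 37.2 CPM in wild type, a log2 fold change of 0.43 (SE 0.176, edgeR adjusted p = 0.209). Both had groups that did not overlap and neither passed the test. ubxn2a had 2.98, 2.96 and 2.95 CPM in runx2b-/-, against 4.24, 3.29 and 3.03 CPM in wild type, and its log2 fold change of -0.25 was close to its SE of 0.216. Its groups too did not overlap, and it was not called. atad2b (0.13, SE 0.177) and klhl29 (0.21, SE 0.406) had log2 fold changes within their SE.

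Within 2.5 Mb, the other genes with separate groups that missed the threshold were cep85l, trib2, stx7l, snx9b and rmdn3. cep85l, which lies 2.14 Mb below runx2b, had 15.9, 8.70 and 13.5 CPM in runx2b-/-, against 4.91, 6.86 and 8.62 CPM in wild type. Mutant library 2 nearly met wild type library 3 (log2 fold change 0.91, SE 0.256, edgeR adjusted p = 0.0797). trib2, a pseudokinase gene, lay on the other side of 0, with a log2 fold change of -0.78 (SE 0.304, edgeR adjusted p = 0.181). DESeq2 called cep85l, and tbc1d7 farther out, in addition to the 7.

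Among tested genes with separate groups that were not called, the largest differences lay far from runx2b and at low levels. kif13bb, a kinesin motor gene 5.91 Mb above, had 0.233, 0.423 and 0.273 CPM in runx2b-/-, against 1.16, 0.610 and 0.685 CPM in wild type, a log2 fold change of -1.42 (SE 0.467, edgeR adjusted p = 0.117). gtf3c2, for a subunit of an RNA polymerase III transcription factor, stood at a log2 fold change of -1.17 (SE 0.398, edgeR adjusted p = 0.129), and adgrf3b, an adhesion receptor gene, also at -1.17 (SE 0.430, edgeR adjusted p = 0.160). gata4, a transcription factor gene known from heart and gut, was on the other side of 0, at 0.886, 0.544 and 0.764 CPM in runx2b-/-, against 0.357, 0.235 and 0.457 CPM in wild type, a log2 fold change of 1.08 (SE 0.443, edgeR adjusted p = 0.204). The fifth, which has an automatic name, had a log2 fold change of 1.03 (SE 0.326, edgeR adjusted p = 0.106).

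Among the abundant genes of the region, trdn alone was called. Per kilobase of length, faua, a ribosomal protein gene, had the highest mean level (568 CPM per kb). CT027638.1 (382), hsp90ab1 (252), related to the chaperone pair left out, trdn (124) and eef1db (112), a translation elongation factor gene, followed. The log2 fold change was -0.16 for faua (SE 0.150), -0.08 for hsp90ab1 (SE 0.193) and -0.03 for eef1db (SE 0.179). hsp90ab1 had 836, 844 and 918 CPM in runx2b-/-, against 646, 1027 and 1066 CPM in wild type, so wild type library 1 lay below every mutant library and the other 2 above. The genes hadhaa and hadhb, for the subunits of the mitochondrial enzyme of fatty acid breakdown, had log2 fold changes of 0.20 (SE 0.179) and -0.18 (SE 0.156), but their exons overlap on opposite strands and the strand setting of the count is not given in the sources used here. txlnba, dtnba and adck3 had log2 fold changes of -0.06, 0.12 and 0.04.

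CT027638.1, an automatic name singled out after its values were seen, had the largest log2 fold change of the tested window, 2.36, on 1 library. It had 2235, 1364 and 27874 counts in runx2b-/-, against 2396, 1333 and 2851 counts in wild type. Only runx2b-/- library 3 stood apart, and with an SE of 1.44 the difference did not pass the test (edgeR adjusted p = 0.466).

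In mammals, RUNX2 sits among a group of neighbours that includes CLIC5, SUPT3H, ENPP4, RCAN2 and CD2AP. Of 23 names of such neighbours, 18 had at least 1 gene in the table, and 12 had genes in this window, 13 genes in all, with 11 at lower and 2 at higher coordinates than runx2b. supt3h, cdc5l, clic5a and enpp4 lie on chromosome 17 instead, where runx2a is also placed. Of the 13 genes, 8 were tested and 0 were called by edgeR, by DESeq2 or by limma voom, and 0 had an unadjusted p under 0.05 in edgeR. Over all tested genes, edgeR called 3.37%, DESeq2 4.8% and limma voom 2.9%. An unadjusted p under 0.05 was seen in 19.4% and separate groups in 24.6%. With only 8 genes, these counts do not set the neighbours apart. The 8 lie 4.95 to 8.56 Mb from runx2b, and clic5b, the nearest neighbour, was not tested. The median log2 fold change of the 8 was -0.03. tdrd6, a germ cell gene, was the 1 with separate groups, at 0.513, 0.483 and 0.382 CPM in runx2b-/-, against 1.47, 0.563 and 0.514 CPM in wild type, where wild type library 1 stood apart (log2 fold change -0.90, SE 0.487, edgeR adjusted p = 0.346). cd2ap, an adaptor protein gene, had a log2 fold change of 0.16 (SE 0.171).

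The genes of this paragraph, known from skeletal or connective tissue or related to such genes, were picked after their values were seen. They form no fixed list. bmp2b, a bone morphogenetic protein gene 1.89 Mb above runx2b, had 0.792, 0.786 and 0.819 CPM in runx2b-/-, against 0.625, 1.08 and 0.514 CPM in wild type, with overlapping groups (log2 fold change 0.10, SE 0.390). cx43, the connexin gene mutated in zebrafish with short fins, had a log2 fold change of 0.24 (SE 0.283). For entpd5b, a paralog of the bone marker entpd5a, it was -0.12 (SE 0.168). col12a1b, for a collagen of tendon and fascia, had 34.3, 51.7 and 45.5 CPM in runx2b-/-, against 46.1, 35.5 and 46.2 CPM in wild type, a log2 fold change of 0.04 (SE 0.187). prrx1b, a transcription factor gene of connective tissue, had a log2 fold change of -0.65 (SE 0.514). matn3a, for a cartilage matrix protein, is 0.235 Mb below runx2b and had 0, 2 and 0 counts in runx2b-/- and 0 in all wild type libraries.

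The 173 untested genes of the window include 4 with 0 counts in 1 genotype and at least 10 in the other, which is 1.06% of 377 genes, against 0.752% of all genes in the table. pomcb, a precursor gene of pituitary peptide hormones 1.03 Mb below runx2b, had 17, 3 and 4 counts in runx2b-/- and 0, 0 and 0 in wild type. Against a floor of 3 counts over the wild type group, it was at least 8.70-fold higher in runx2b-/-. This and the bounds below allow for counting error only on the side with 0 counts and take the other counts as exact. tmem151ba, 7.40 Mb above, had 0, 0 and 0 counts in runx2b-/- and 15, 9 and 1 in wild type, at least 7.67-fold lower in runx2b-/- against the same floor. These low counts came from a few libraries: runx2b-/- library 1 held most of pomcb, and wild type libraries 1 and 2 held 24 of the 25 counts of tmem151ba. myh6, a cardiac myosin gene, had 0, 0 and 0 counts in runx2b-/- and 2, 1 and 38 in wild type, so its bound of at least 12.6-fold lower rests on wild type library 3.

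The fourth was si:zfos-1505d6.3, an automatic name, with 0, 0 and 0 counts in runx2b-/- and 15, 8 and 0 in wild type, at least 7.05-fold lower in runx2b-/-. It lies among 5 zp2 genes, for glycoproteins of the fish egg coat made in the oocyte, between 54420785 and 54445249. A group of 5 genes named si:dkey-241l7 starts at 54223766, and 5 other genes, such as rps29 and actr10, lie between the groups without this pattern. These 11 genes were singled out after their counts were seen. In sum they had 0, 23 and 0 counts in runx2b-/- libraries 1 to 3, against 472, 199 and 3 counts in wild type libraries 1 to 3. Wild type libraries 1 and 2 carried nearly all of them, while wild type library 3 was as low as the mutants. zp2.5 had 0, 1 and 0 counts in runx2b-/- and 100, 33 and 0 in wild type, and zp2.3 had 0, 2 and 0 in runx2b-/- and 94, 33 and 0 in wild type. The zp2 copies are much alike, so how reads were divided among them is uncertain.

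si:dkeyp-50f7.2, which RefSeq lists as the egg coat gene zpax1, lies only 0.258 Mb below runx2b and had the same pattern of libraries, with 2, 3 and 0 counts in runx2b-/- and 96, 40 and 0 in wild type. Some egg coat genes elsewhere in the genome had it too: zp3.2 on chromosome 17 had 0, 2 and 0 counts in runx2b-/- and 135, 73 and 0 in wild type, and zp3b on chromosome 2 had 2, 5 and 1 in runx2b-/- and 53, 29 and 3 in wild type. It was weaker in zp3d.1 on chromosome 16, with 9, 7 and 6 counts in runx2b-/- and 39, 34 and 9 in wild type. The yolk gene vtg1 differed from them in wild type library 3, with 1, 3 and 0 counts in runx2b-/- and 264, 253 and 163 in wild type. At least 80% of all counts fell in wild type libraries 1 and 2 for 14 of the 293 genes of the window with 8 or more counts (4.78%), against 361 of 19965 genes of the table (1.81%), by a criterion chosen after these values were seen. None of the 14, tmem151ba among them, was tested. The count filter asks for counts in several libraries, which genes with most counts in 2 libraries seldom meet. Their absence from the 204 tested genes and the calls thus follows largely from the filter. Whether egg RNA had a part in the values of tested genes was not tested. The part of egg or ovary RNA in these counts was not tested.

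**Figure D4:**
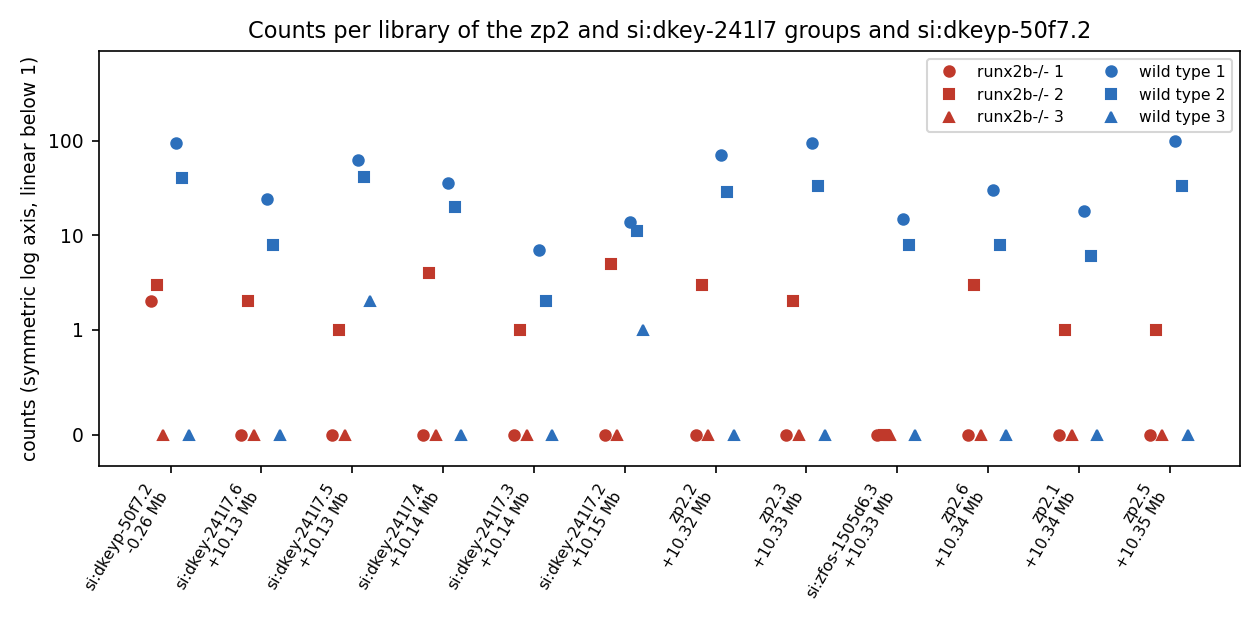
Counts in each library (vertical axis, logarithmic above 1 and linear below) for si:dkeyp-50f7.2 and the 11 genes of the zp2 and si:dkey-241l7 groups, with the distance from runx2b in Mb under each name. Wild type libraries 1 and 2 (blue circles and squares) lie above the runx2b-/- libraries (red) for each of the 12 genes, and wild type library 3 (blue triangles) lies at 0 to 2 counts.

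The share called in the window followed that of the whole table from setting to setting. It was highest without wild type library 3, at 17 of 221 tested genes (7.69%) against 8.26% of all, and 0 without runx2b-/- library 1 (0.903% of all) or without runx2b-/- library 3 (0.776% of all). Without wild type library 3, si:dkeyp-50f7.2 and 5 of the 11 genes of the zp2 and si:dkey-241l7 groups were among the calls. With no filter on low counts, 13 of 377 genes were called (3.45%) against 4.59% of all, and pomcb, tmem151ba, si:zfos-1505d6.3 and zp2.1 were among them. In each of the 14 alternatives, the share called in the window was below that of all tested genes.

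**Figure D5:**
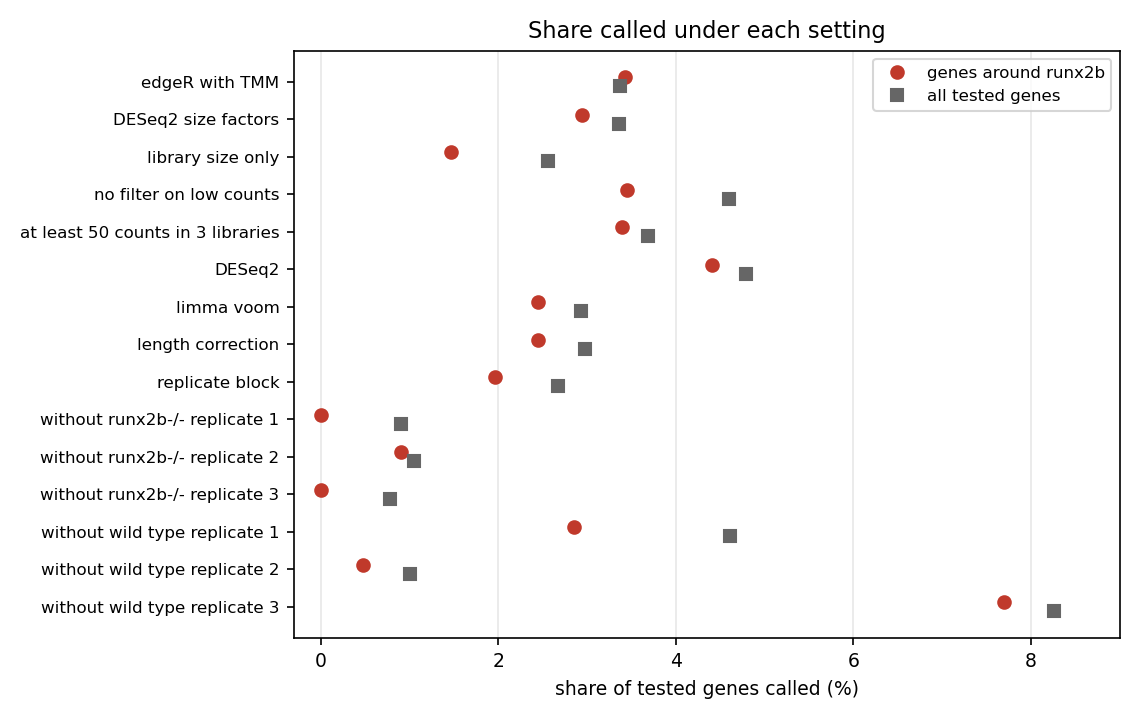
Share of tested genes called (horizontal axis, percent) under each setting (vertical axis), for the genes around runx2b (red circles) and for all tested genes (grey squares). The circle and the square move together, between 0 and 7.69% for the window and between 0.776% and 8.26% for all tested genes.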

How the data were processed

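The authors deposited a table of raw counts, whole numbers per gene and bulk library, neither normalized nor pooled. Per the file headers it also gives symbol, position, strand and length. Which aligner, counting program and strand setting were used, and how reads matching several genes were treated, is not given in the sources used here. Cell Ranger and GRCz11 appear in the submitters' processing notes but are not tied to this table, so positions are those of the table. Per the labels' protocols, Trizol was used for RNA and a stranded mRNA kit for libraries. The 2 single-cell samples were not analysed here.

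Genes were kept with filterByExpr (minimum count 10, minimum total 15) and fitted on the whole table with edgeR 4.0.16 in R 4.3.3 (TMM factors 0.882 to 1.13, robust glmQLFit, glmQLFTest, no covariate), with p-values adjusted by Benjamini-Hochberg over 14107 genes. CPM use TMM-scaled library sizes. Log2 fold changes are runx2b-/- over wild type, and the SE is the absolute value divided by the square root of F. Distances are between gene starts. DESeq2 1.42.0, limma 3.58.1 (voom), other scalings and filters, a length correction, a replicate block and leaving out each library were alternatives. The main edgeR fit was tested on simulated counts with planted differences, and the other fits were not. RefSeq names came from the assembly GRCz12tu (273 of 377 matched by symbol and 16 by synonym).

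The window, the lists and the tests were chosen with earlier results of these data known. Genes were named by rule: those called, the 5 tested genes nearest on each side, the 10 most abundant, those silent in 1 genotype, the 5 largest uncalled differences with separate groups, and listed RUNX2 neighbours and cell markers in the window. Other genes named were chosen after their values were seen.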

Additional observations from a re-analysis of the deposited data

How the results depend on the processing

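The 7 called genes kept their direction in all 98 repeats under 14 alternatives and stayed past the threshold in 55. The other 31 tested genes that the naming rule gave stayed uncalled in all 418 of theirs; cep85l and tbc1d7, named outside it, were called in 3 alternatives each. The count called higher, 6, became 2 with scaling by library size alone, 3 with at least 50 counts in 3 libraries and 3 with the replicate number as a block, which ended the calls of mark3b (adjusted p = 0.0770), igf2r (0.0815) and mettl24 (0.0630). The count called lower, 1, became 4 with no filter on low counts. Genes with separate groups numbered 28 of 118 with at least 50 counts in 3 libraries (23.7%, against 26.8% of all genes tested there), not 44 of 204. Leaving out 1 library gave 0 to 9 called higher, 0 to 8 called lower, 58 to 82 with separate groups (27.6% to 37.1%, against 31.1% to 41.2% of all) and 3 to 13 silent in 1 genotype, the last highest without runx2b-/- library 2; groups of 2 against 3 separate more easily by construction. The count over all genes, 476, ran between 115 (without runx2b-/- library 3) and 1225 (without wild type library 3) and was 1161 with no filter. No pairing by replicate number was visible: deviations of same-numbered libraries correlated at -0.0553, 0.0348 and 0.0306, and not every library correlated best with its own number. The labels do not say whether same-numbered libraries belong together, and so few libraries cannot exclude it. Depth limits the 173 genes that were not tested, runx2b among the genes left out, and clic5b.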

Other observations

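Some small families of the window had few counts in this tissue. The 4 ccl38 chemokine genes of the window had 47 counts in sum in runx2b-/- and 94 in wild type, and 1 of them was tested and not called. The 4 pimr genes had 2 counts in runx2b-/- and 6 in wild type over all libraries. The Toll-like receptor genes tlr5a and tlr5b had 264 counts in runx2b-/- and 342 in wild type, and the 1 tested was not called. fosab, an immediate early gene 2.55 Mb above runx2b, had 1, 5 and 5 counts in runx2b-/- and 4, 13 and 8 in wild type, and was not tested.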
